A study of Caenorhabditis elegans with 9 samples.

Results

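The small heat-shock proteins (sHSPs) of *Caenorhabditis elegans* outside the *hsp-16* group were followed through 8 genes, *hsp-17*, *sip-1*, *hsp-25*, *hsp-43*, *hsp-12.1*, *hsp-12.2*, *hsp-12.3* and *hsp-12.6*. They were picked by gene name, with earlier results of these data known. Each matched 1 of the 46739 genes in the deposited count table. All worms were N2 wild-type animals, synchronized by bleaching, placed on RNAi bacteria as L1 larvae and harvested whole at the L4 larval stage. Of the 9 libraries of polyadenylated RNA, 3 came from worms fed *cco-1* RNAi, which targets a subunit of mitochondrial complex IV, 3 from worms fed *his-3* RNAi, which targets histone H2A genes, and 3 from worms fed bacteria with the empty vector (EV). The question of the design was how a mitochondrial and a histone perturbation change gene expression relative to EV, and the direct comparison of the treatments was added here.

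sHSPs are built around an α-crystallin domain. Many of them bind proteins that begin to unfold, without using ATP, so that these stay soluble until ATP-driven chaperones such as HSP70 refold them. The *hsp-16* genes are the strongly heat-inducible sHSPs of the worm and are driven by heat-shock factor HSF-1. The genes described here are more varied. Some are present without heat in particular tissues, and *sip-1* and *hsp-12.6* are also known as targets of HSF-1 and of DAF-16, the FOXO factor of the insulin pathway.

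In the WBcel235 annotation the 8 genes lie on 5 chromosomes and encode proteins of 109 to 393 residues. The HSP12 genes are the shortest. *hsp-12.1* (WBGene00011906, chromosome I, 10581538 to 10582615, minus strand) encodes 112 residues, *hsp-12.2* (WBGene00002011, chromosome III, 8138077 to 8139631, plus strand) 110, *hsp-12.3* (WBGene00002012, chromosome IV, 9444791 to 9445507, minus strand) 109 and *hsp-12.6* (WBGene00002013, chromosome IV, 9446229 to 9447228, minus strand) 110. *hsp-12.3* and *hsp-12.6* are neighbours on the same strand, 721 bases apart. *hsp-17* (WBGene00002021, chromosome V, 8384799 to 8385929, minus strand) encodes 149 residues and *sip-1* (WBGene00004798, chromosome III, 10506106 to 10506801, minus strand) 159. The larger proteins are those of *hsp-25* (WBGene00002023, chromosome X, 6034463 to 6039644, minus strand) with 219 residues and *hsp-43* (WBGene00002024, chromosome X, 6233151 to 6235543, minus strand) with 393. Protein-coding genes on the opposite strand overlap *hsp-12.2* (*C14B9.8*), *hsp-17* (*F52E1.14*) and *hsp-25* (*ipp-5*). The libraries were stranded, but whether the counting used the strand is not given in the sources used here, so values of the overlapping genes are set beside those of their partners below.

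The reads assigned to genes numbered 25129763 to 32017517 per library, and libraries of 1 group correlated with each other at r = 0.9939 to 0.9956, with none standing apart. The target of *cco-1* RNAi, listed as *cox-5B*, had 4713 ± 209 normalized counts under *cco-1* RNAi, 9435 ± 187 under *his-3* RNAi and 12650 ± 125 in EV (SD, n = 3 each). *his-3* itself had 17.7 ± 4.49 normalized counts under *cco-1* RNAi, 109 ± 10 under *his-3* RNAi and 174.9 ± 5.33 in EV (SD, n = 3 each). Its lowest level was thus in the *cco-1* RNAi libraries, and reads that fit several of the near-identical H2A genes were left out of the counts. A normalized count is a read count scaled to a library of average size with edgeR's TMM factors. Of the 46739 genes, 16817 had more than 5 reads in more than 3 libraries and were tested, among them 7 of the 8 sHSP genes. *hsp-12.6* did not pass this filter and is described by its reads. A gene was called at an adjusted p under 0.05 in edgeR's quasi-likelihood F test, with Benjamini-Hochberg adjustment over all genes tested.

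Tissue and stage markers moved with the treatments, and their part in the sHSP values was not tested. Among all tested genes, 34.9% were called higher and 35.9% lower under *cco-1* RNAi, and 26.9% and 27.9% under *his-3* RNAi, against EV. In RNA from whole worms, fewer cells of a type, less RNA per cell and a shift in stage cannot be told apart. Of the 6 intestinal markers, 5 were higher and 1 lower under *cco-1* RNAi, while all 6 were lower under *his-3* RNAi. Their summed normalized count was 202300 to 205700 under *cco-1* RNAi, 66220 to 81100 under *his-3* RNAi and 99980 to 110300 in EV. Of the 7 hypodermal and cuticle markers, 1 was higher and 6 lower under *cco-1* RNAi, with sums of 9941 to 15210 against 89210 to 91960 in EV. Under *his-3* RNAi 1 of them was higher and 2 lower, with sums of 74320 to 88400. Sperm markers were lower for 8 of 9 tested genes under *cco-1* RNAi (sums of 11440 to 12690, against 17850 to 18750 in EV), whereas 2 were higher and 2 lower under *his-3* RNAi (18250 to 19530). Of 9 oocyte and eggshell markers, 1 was higher and 3 lower under *cco-1* RNAi (11060 to 12410) and 7 were higher and 2 lower under *his-3* RNAi (19320 to 21000, against 16910 to 17820 in EV). Germline markers were lower for 5 of 7 genes with each treatment, and 1 was higher under *his-3* RNAi (sums of 40100 to 40990 under *cco-1* RNAi, 42140 to 44320 under *his-3* RNAi and 47970 to 48790 in EV). Of 6 vulval and somatic gonad markers, 1 was higher and 3 lower under *cco-1* RNAi (3673 to 3698) and 3 were higher and 3 not called under *his-3* RNAi (4133 to 5041, against 3907 to 3959 in EV). Early embryonic markers were near absent, with summed normalized counts of 7.16 to 12.98 under *cco-1* RNAi, 10.1 to 22.5 under *his-3* RNAi and 16.6 to 23.7 in EV over 6 genes, of which 1 was at 0 in every library.

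Under *cco-1* RNAi, *hsp-17*, *sip-1* and *hsp-25* were higher than in EV and *hsp-12.1* was lower, while *hsp-12.2*, *hsp-12.3* and *hsp-43* did not pass the test. Thus 3 of the 7 tested genes were called higher, where 34.9% of all tested genes were, and 1 was called lower, where 35.9% were. Called in either direction were 4 of the 7, beside 70.8% of all tested genes, so that the share of called sHSP genes did not exceed the background. Under *his-3* RNAi, *hsp-17* and *sip-1* were higher and *hsp-12.1*, *hsp-12.2* and *hsp-43* were lower than in EV, while *hsp-25* and *hsp-12.3* did not pass. These are 2 called higher and 3 called lower of the 7, beside 26.9% and 27.9% of all tested genes, and 5 called in either direction, beside 54.8%. The called genes were also those whose treated libraries did not overlap the EV libraries. Under *cco-1* RNAi such genes were 3 above and 1 below, beside 37.5% above, 38.2% below and 75.7% in either direction among all tested genes. Under *his-3* RNAi they were 2 above and 3 below, beside 29.6%, 30.4% and 60%. Over the 7 genes the median log2 fold change was 0.20 under *cco-1* RNAi and −0.10 under *his-3* RNAi, beside 0.01 and 0.02 for all genes tested. *hsp-17* and *sip-1* were the only tested sHSP genes outside the *hsp-16* group that were higher with both treatments, as were 2867 genes (17%) of all tested, with the EV libraries common to both comparisons.

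**Figure D1:**
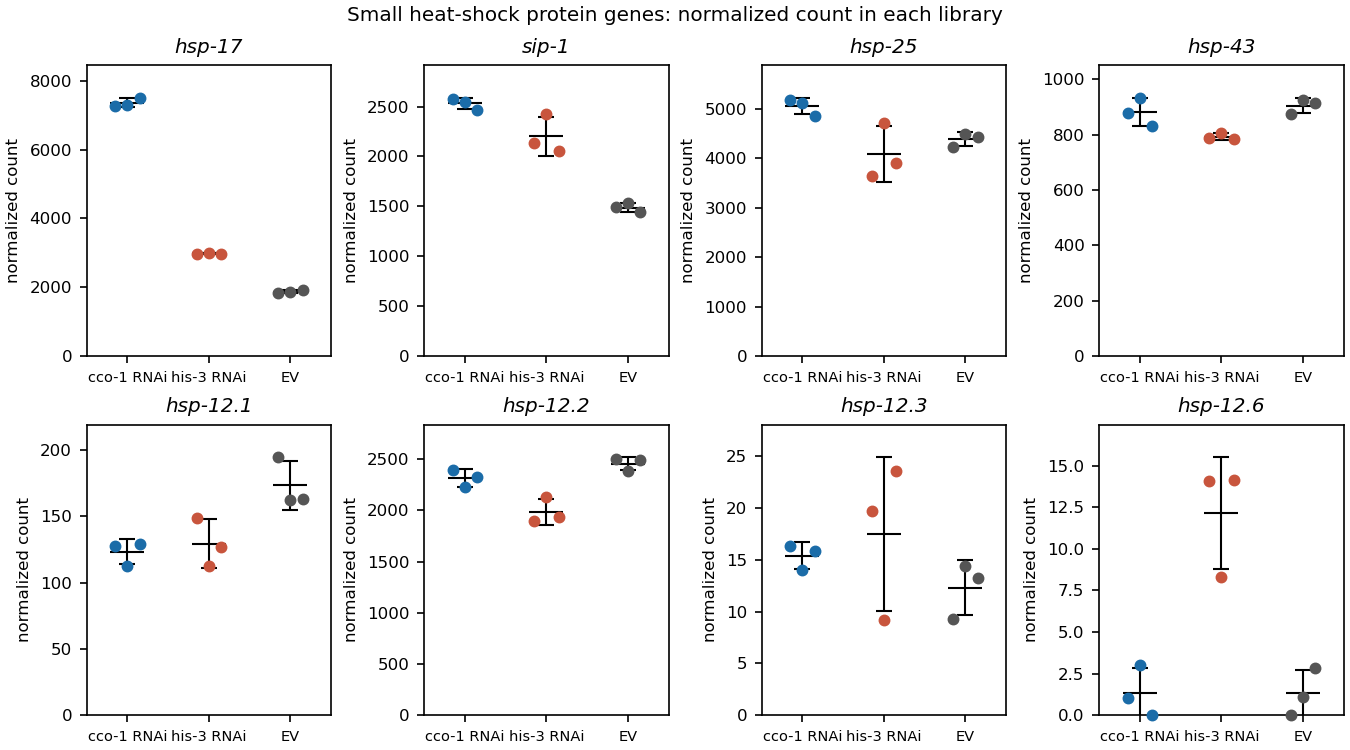
Normalized count of each of the 8 genes (vertical axis, from 0, a separate scale for each gene) in the 3 *cco-1* RNAi, 3 *his-3* RNAi and 3 EV libraries, with points for libraries and a bar and whiskers for the mean and SD. *hsp-17* lies at 7273 to 7519 under *cco-1* RNAi, 2963 to 2999 under *his-3* RNAi and 1840 to 1909 in EV, and *hsp-12.6* reaches 8.28 to 14.2 only under *his-3* RNAi.

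HSP-17 is an α-crystallin protein. *hsp-17* had 7273, 7307 and 7519 normalized counts in the *cco-1* RNAi libraries, 2963, 2999 and 2980 in the *his-3* RNAi libraries, and 1840, 1870 and 1909 in the EV libraries. The 3 groups were fully separated, with *cco-1* RNAi highest, *his-3* RNAi between and EV lowest, and within a group the SD was 1.81% of the mean under *cco-1* RNAi, 0.589% under *his-3* RNAi and 1.84% in EV. Under *cco-1* RNAi the gene was 3.93-fold higher than in EV (log2 fold change 1.98, standard error 0.0403, 95% interval 1.89 to 2.06, edgeR adjusted p = 1.44e-16), and 4.42% of the genes tested had a higher fold change. Under *his-3* RNAi it was 1.59-fold higher (log2 fold change 0.67, standard error 0.0402, 95% interval 0.58 to 0.76, edgeR adjusted p = 5.17e-10), and 12.4% of genes had a higher fold change. The study also asked for an absolute log2 fold change of 2 or more, a rule that 10.9% of genes passed under *cco-1* RNAi and 3.95% under *his-3* RNAi, and the value of *hsp-17* under *cco-1* RNAi fell just short of it with TMM scaling. With scaling by the upper quartile, by library size alone or by *act-1* and *pmp-3* it was 2.06, 2.07 and 2.14, past that threshold. Its overlapping partner *F52E1.14* did not follow it. That gene had 1505 to 1726 reads under *cco-1* RNAi, 1271 to 1492 under *his-3* RNAi and 1387 to 1789 in EV, with log2 fold changes of 0.06 (edgeR adjusted p = 0.376) and −0.32 (edgeR adjusted p = 0.000407).

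SIP-1 is known as an sHSP of oocytes and embryos. *sip-1* had 2580, 2550 and 2468 normalized counts in the *cco-1* RNAi libraries, 2131, 2426 and 2053 in the *his-3* RNAi libraries, and 1491, 1529 and 1441 in the EV libraries. All treated libraries lay above all EV libraries, and all *cco-1* RNAi libraries lay above all *his-3* RNAi libraries, of which replicate 2 was the highest. *sip-1* was 1.70-fold higher under *cco-1* RNAi (log2 fold change 0.77, standard error 0.0564, edgeR adjusted p = 2.68e-09) and 1.48-fold higher under *his-3* RNAi (log2 fold change 0.57, standard error 0.0564, edgeR adjusted p = 2.75e-07). Of all genes tested, 14.7% and 14.6% had a higher fold change. Oocyte and eggshell markers, given above, were mostly higher under *his-3* RNAi alone. Under *cco-1* RNAi 5 of the 9 were not called, though their summed counts lay below those in EV. The largest falls were in *perm-2* (210.5 normalized counts against 2233 in EV) and *perm-4* (390.1 against 3150). The part of these markers in the *sip-1* values was not tested.

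HSP-25 is found in body wall muscle, at the dense bodies and M-lines that anchor the contractile filaments. *hsp-25* had 5185, 5129 and 4867 normalized counts under *cco-1* RNAi, 3644, 4720 and 3906 under *his-3* RNAi, and 4234, 4499 and 4442 in EV. The *cco-1* RNAi libraries lay above all EV libraries, whereas the *his-3* RNAi libraries fell on both sides, replicate 2 above and the other two below every EV value. The log2 fold change was 0.20 under *cco-1* RNAi (95% interval 0.06 to 0.35, edgeR adjusted p = 0.0162) and −0.10 under *his-3* RNAi (95% interval −0.25 to 0.05, edgeR adjusted p = 0.237). The call under *cco-1* RNAi and its absence under *his-3* RNAi each turned on 1 library. Without EV replicate 1 the value for *cco-1* RNAi was 0.18 (edgeR adjusted p = 0.0606), and without *his-3* RNAi replicate 2 the value for *his-3* RNAi was −0.22 (edgeR adjusted p = 0.000795). With scaling by *act-1* and *pmp-3* the value for *his-3* RNAi changed sign, to 0.18 (edgeR adjusted p = 0.0215). The overlapping gene *ipp-5*, also on the list of vulval and somatic gonad markers, had log2 fold changes of −0.03 (edgeR adjusted p = 0.68) and −0.14 (edgeR adjusted p = 0.0619).

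HSP-43 is known from muscle attachment sites and from the reproductive tract. *hsp-43* had 878, 934 and 833 normalized counts under *cco-1* RNAi, 789, 807 and 785 under *his-3* RNAi, and 874, 926 and 915 in EV. The *cco-1* RNAi and EV libraries overlapped, and all *his-3* RNAi libraries lay below both. The log2 fold change was −0.04 under *cco-1* RNAi (95% interval −0.15 to 0.08, edgeR adjusted p = 0.566) and −0.19 under *his-3* RNAi (95% interval −0.30 to −0.08, edgeR adjusted p = 0.00716). Body wall muscle markers were lower for 5 of 8 genes under *cco-1* RNAi and 7 of 8 under *his-3* RNAi, and the others were not called. Their summed normalized counts were 396200 to 413900 under *cco-1* RNAi, 347600 to 389200 under *his-3* RNAi and 486200 to 540500 in EV, and the part of this in the values of *hsp-25* and *hsp-43* was not tested.

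The HSP12 proteins are little more than the α-crystallin domain, and those studied in vitro lack the ability to hold unfolding proteins in solution. *hsp-12.2* had 2392, 2225 and 2329 normalized counts under *cco-1* RNAi, 1894, 2129 and 1935 under *his-3* RNAi, and 2498, 2379 and 2492 in EV. The *cco-1* RNAi and EV libraries overlapped, and all *his-3* RNAi libraries lay below both. Its log2 fold change was −0.09 under *cco-1* RNAi (95% interval −0.19 to 0.02, edgeR adjusted p = 0.132) and −0.31 under *his-3* RNAi (standard error 0.0494, edgeR adjusted p = 6.01e-05). The overlapping gene *C14B9.8* had log2 fold changes of 0.24 under *cco-1* RNAi (edgeR adjusted p = 0.000269) and −0.11 under *his-3* RNAi (edgeR adjusted p = 0.0558). In a fit of only the *cco-1* RNAi and EV libraries, *hsp-12.2* was also called lower under *cco-1* RNAi (log2 fold change −0.09, edgeR adjusted p = 0.0451).

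*hsp-12.1*, a less studied gene of the HSP12 class, had 128, 113 and 129 normalized counts under *cco-1* RNAi, 149, 112 and 127 under *his-3* RNAi, and 195, 162 and 163 in EV. All treated libraries lay below all EV libraries, of which replicate 1 was the highest, and the treatments overlapped. Of the 7 tested genes it alone was called lower in both comparisons, at a log2 fold change of −0.49 under *cco-1* RNAi (standard error 0.122, edgeR adjusted p = 0.00186) and −0.42 under *his-3* RNAi (standard error 0.119, edgeR adjusted p = 0.00638). With scaling by *act-1* and *pmp-3* the value under *his-3* RNAi was −0.13 (edgeR adjusted p = 0.371).

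*hsp-12.3* and *hsp-12.6* were near the limit of detection in all libraries. *hsp-12.3* gave 16, 14 and 14 reads under *cco-1* RNAi, 21, 10 and 25 under *his-3* RNAi, and 9, 13 and 14 in EV. The groups overlapped, and the *his-3* RNAi libraries spread widest. The log2 fold change was 0.32 under *cco-1* RNAi (95% interval −0.43 to 1.07, edgeR adjusted p = 0.433) and 0.50 under *his-3* RNAi (95% interval −0.22 to 1.21, edgeR adjusted p = 0.227). Without *his-3* RNAi replicate 2, the library with 10 reads, the value for *his-3* RNAi was 0.81 (edgeR adjusted p = 0.0292), and with scaling by *act-1* and *pmp-3* it was 0.79 (edgeR adjusted p = 0.0492).

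*hsp-12.6* gave 1, 3 and 0 reads under *cco-1* RNAi, 15, 9 and 15 under *his-3* RNAi, and 0, 1 and 3 in EV. All *his-3* RNAi libraries lay above the others, and the *cco-1* RNAi and EV libraries overlapped. Summed over 3 libraries there were 4 reads under *cco-1* RNAi (95% Poisson interval 1.09 to 10.2), 39 under *his-3* RNAi (27.7 to 53.3) and 4 in EV (1.09 to 10.2). With TMM-scaled library sizes, *hsp-12.6* under *his-3* RNAi stood at 8.88 times its level in EV (95% interval of the ratio 3.20 to 34.2). Under *cco-1* RNAi it stood at 1.02 times (0.191 to 5.49). These intervals cover counting error only. By qRT-PCR, another measure, the paper reports *hsp-12.6* as higher with both treatments. With 4 reads each under *cco-1* RNAi and in EV, the libraries here cannot decide on a rise under *cco-1* RNAi. The exact two-sided permutation test over libraries gave p = 0.1 for *his-3* RNAi against EV, the smallest p that 3 against 3 libraries allow. When the filter on low counts was left out, edgeR gave *hsp-12.6* a log2 fold change of 3.03 under *his-3* RNAi (adjusted p = 4.6e-05) and 0.03 under *cco-1* RNAi (adjusted p = 1). Its neighbour *hsp-12.3* was not called with either treatment.

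A pair of further α-crystallin genes, *F08H9.3* and *F08H9.4*, which RefSeq names as *hsp-16* genes, was as rare and was not tested either. *F08H9.3* gave 2, 1 and 1 reads under *cco-1* RNAi, 15, 11 and 14 under *his-3* RNAi, and 0, 1 and 0 in EV. *F08H9.4* gave 5, 3 and 3 reads under *cco-1* RNAi, 9, 10 and 15 under *his-3* RNAi, and 1, 3 and 1 in EV. In both genes, as in *hsp-12.6*, the 3 *his-3* RNAi libraries lay above the other 6. Among all tested genes, 29.6% had every *his-3* RNAi library above every EV library. No such share was taken over genes that failed the filter, so this pattern is not shown to be particular to these genes.

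**Figure D2:**
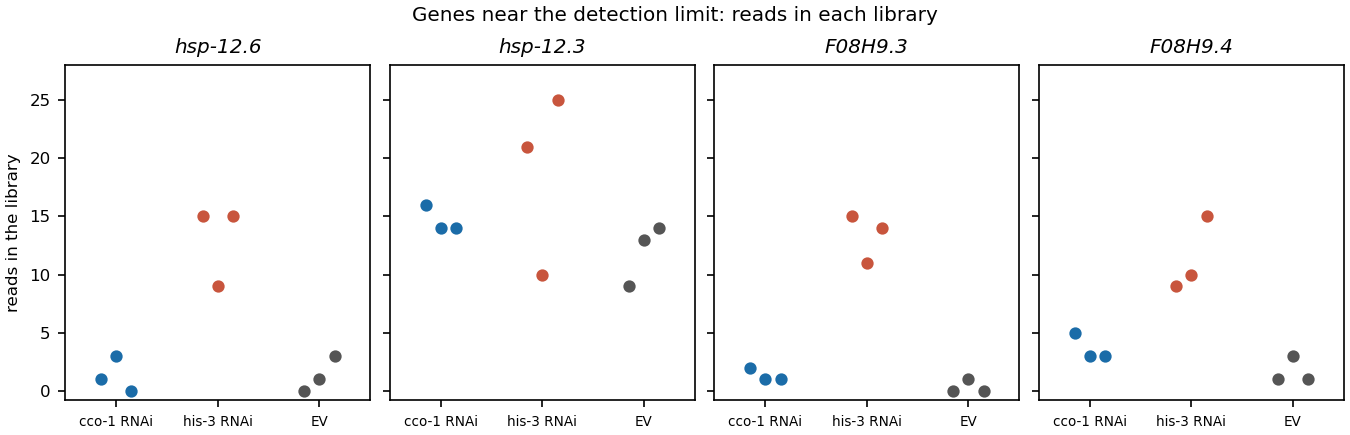
Reads in each library (vertical axis, not normalized) of the genes near the detection limit, with 1 point for each of the 3 *cco-1* RNAi, 3 *his-3* RNAi and 3 EV libraries. The *his-3* RNAi libraries hold 9 to 15 reads of *hsp-12.6*, 11 to 15 of *F08H9.3* and 9 to 15 of *F08H9.4*, above the other libraries, while for *hsp-12.3* the groups overlap.

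Set directly against each other, *cco-1* RNAi libraries held more RNA than *his-3* RNAi libraries from 5 of the 7 tested genes, *hsp-17*, *hsp-25*, *hsp-12.2*, *sip-1* and *hsp-43*, with 0 called lower, beside 31.8% of all tested genes higher, 36.8% lower and 68.6% called in either direction. In the same 5 genes all *cco-1* RNAi libraries lay above all *his-3* RNAi libraries, as in 33.2% of all tested genes, with 38% below and 71.2% apart in either direction. The 0 rests on the filter, since without it edgeR called *hsp-12.6* lower under *cco-1* RNAi than under *his-3* RNAi (log2 fold change −3.001, adjusted p = 3.85e-05). At an unadjusted p under 0.05 edgeR also gave 0 of the 7 tested genes as lower, and limma-voom and DESeq2 called 0. Among the 7 tested genes the difference was largest for *hsp-17*, with 7366 ± 133 normalized counts under *cco-1* RNAi and 2981 ± 17.6 under *his-3* RNAi (SD, n = 3 each), a log2 fold change of 1.31 (standard error 0.0389, edgeR adjusted p = 1.93e-14), under the fold threshold of the study that 9.07% of genes passed in this comparison. The remaining differences were small, with log2 fold changes of 0.31 for *hsp-25* (edgeR adjusted p = 0.00102), 0.22 for *hsp-12.2* (edgeR adjusted p = 0.000851), 0.20 for *sip-1* (edgeR adjusted p = 0.00379) and 0.15 for *hsp-43* (edgeR adjusted p = 0.0195). The call of *hsp-43* was lost without *cco-1* RNAi replicate 2 (0.11, edgeR adjusted p = 0.115) or *his-3* RNAi replicate 3 (0.15, edgeR adjusted p = 0.0515). With scaling by library size alone or by *act-1* and *pmp-3*, *hsp-17* and *hsp-25* kept the call and the other three genes lost it. *hsp-12.1* and *hsp-12.3* had differences of −0.07 (95% interval −0.34 to 0.20, edgeR adjusted p = 0.648) and −0.18 (95% interval −0.86 to 0.51, edgeR adjusted p = 0.641). Of the 3 tested loci of the *hsp-16* group, *hsp-16.2* was not called between the treatments, at 672.4 ± 123 normalized counts under *cco-1* RNAi and 647.5 ± 138 under *his-3* RNAi (SD, n = 3 each), a log2 fold change of 0.05 (edgeR adjusted p = 0.748). *hsp-16.41* was lower under *cco-1* RNAi, at 463.2 ± 75.4 normalized counts under *cco-1* RNAi and 700.4 ± 116 under *his-3* RNAi (SD, n = 3 each), a log2 fold change of −0.60 (edgeR adjusted p = 0.000238). For *hsp-16.48*, which has a duplicate copy in the genome and so an uncertain value, it was −0.41 (edgeR adjusted p = 0.0466), and the libraries of the treatments overlapped.

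**Figure D3:**
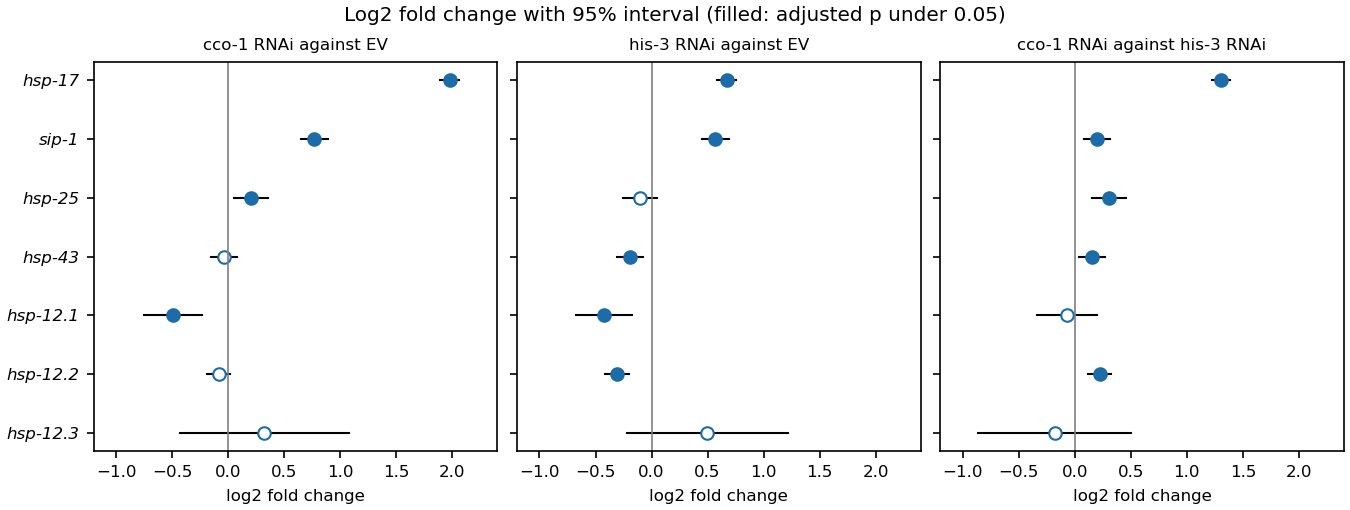
Log2 fold change (horizontal axis) of the 7 tested genes in the 3 comparisons, with lines for the 95% interval and filled points for an edgeR adjusted p under 0.05. *hsp-17* stands at 1.98, 0.67 and 1.31, and *hsp-12.1* is lower with both treatments. The values of *hsp-12.2* and *hsp-43* under *cco-1* RNAi and of *hsp-25* and *hsp-43* under *his-3* RNAi change sign with scaling by library size alone or by *act-1* and *pmp-3*.

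The choice of scaling mattered for the small changes. With *act-1* and *pmp-3* as the scale, the median log2 fold change of all genes moved to 0.17 under *cco-1* RNAi and 0.31 under *his-3* RNAi, and with library size alone to 0.10 and 0.24. *act-1* itself was lower than in EV with both treatments (log2 fold changes of −0.47 and −0.64, edgeR adjusted p = 1.17e-05 and 6.99e-07). Relative to the median of all genes, *hsp-17* stood at 1.97 under *cco-1* RNAi and 0.65 under *his-3* RNAi. In the same order *sip-1* stood at 0.76 and 0.55, and *hsp-12.1* at −0.50 and −0.44. The values were 0.20 and −0.12 for *hsp-25*, −0.09 and −0.33 for *hsp-12.2*, and −0.04 and −0.21 for *hsp-43*. For *hsp-12.3* they were 0.31 and 0.48. These relative values were nearly the same with every scaling tried. The calls of *hsp-17* and *sip-1* as higher than EV, at an adjusted p under 0.05, held under every test, scaling and filter tried and without any 1 library. Among the calls against EV that did not, *hsp-12.1*, *hsp-12.2* and *hsp-43* were not called under *his-3* RNAi when scaled by library size alone (log2 fold changes of −0.21, −0.09 and 0.03) or by *act-1* and *pmp-3* (−0.13, −0.02 and 0.10), and *hsp-43* also not by the upper quartile (−0.11).

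**Figure D4:**
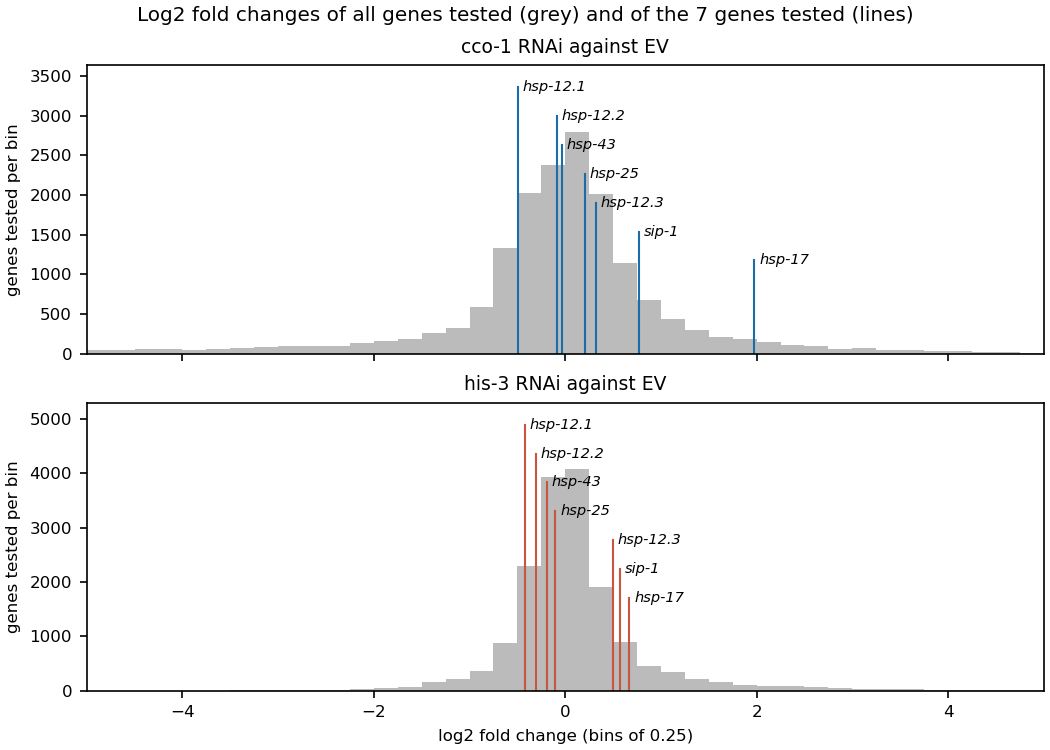
Histogram of the log2 fold changes of the 16817 genes tested (horizontal axis, bins of 0.25, vertical axis genes per bin) under *cco-1* RNAi above and *his-3* RNAi below, each against EV, with labelled lines, whose height carries no value, for the 7 sHSP genes tested. Beyond the axis limit of 5 in size lie 305 and 75 genes. *hsp-17* lies on the upper flank under *cco-1* RNAi, *hsp-17* and *sip-1* lie side by side under *his-3* RNAi, and most of the other lines fall in the centre, where the sign of *hsp-12.2*, *hsp-25* and *hsp-43* depends on the scaling in 1 or both panels.

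Levels were compared between genes as RPKM, reads divided by exon length and by the TMM-scaled library size. In EV the order of RPKM values was *hsp-12.2* (162 to 170), *hsp-25* (131.7 to 139.9), *hsp-17* (115.9 to 120.2), *sip-1* (79.4 to 84.2), *hsp-43* (22.3 to 23.6), *hsp-12.1* (11.5 to 13.8), *hsp-12.3* (0.495 to 0.762) and *hsp-12.6* (0 to 0.130), and no neighbours in this order overlapped. Under *cco-1* RNAi *hsp-17* led at 458 to 473.5 RPKM, ahead of *hsp-12.2* (151.5 to 162.9) and *hsp-25* (151.4 to 161.3), whose ranges overlapped, and of *sip-1* (136 to 142.2). Under *his-3* RNAi *hsp-17* also led, at 186.6 to 188.8, and *hsp-12.2* (129 to 145), *hsp-25* (113.3 to 146.8) and *sip-1* (113.1 to 133.7) overlapped. At the lower end *hsp-12.3* (0.488 to 1.25) and *hsp-12.6* (0.380 to 0.649) overlapped under *his-3* RNAi, and the order of *hsp-43* and *hsp-12.1* was the same in all groups. *hsp-17*, behind *hsp-12.2* and *hsp-25* in EV, was thus the gene with the highest level of the 8 in both treatments.

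The summed level of the 8 genes was 944.3 to 956.6 RPKM under *cco-1* RNAi, 578.6 to 643.6 under *his-3* RNAi and 536.3 to 543 in EV. *hsp-17* made up 47.9 to 49.8% of this sum under *cco-1* RNAi, 29.3 to 32.3% under *his-3* RNAi and 21.6 to 22.1% in EV. The share of *hsp-12.2* was 16 to 17% under *cco-1* RNAi, 22.3 to 22.5% under *his-3* RNAi and 30.0 to 31.7% in EV. Shares of 1 sum are not independent, and a larger share of *hsp-17* lowers the shares of the others.

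**Figure D5:**
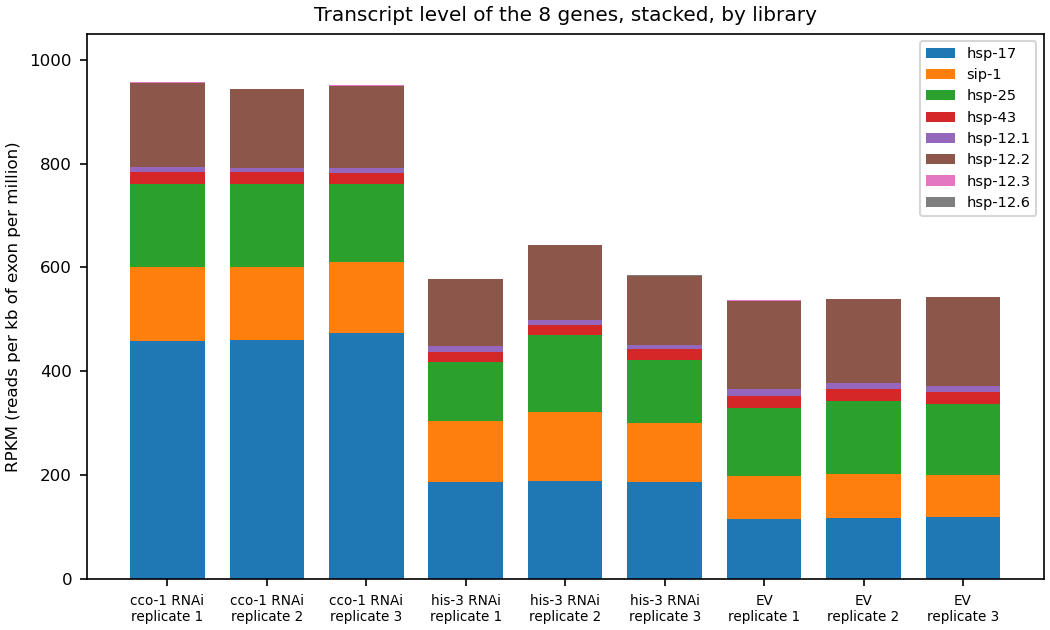
Level of the 8 genes stacked in each library (vertical axis, RPKM, from 0), with the *cco-1* RNAi libraries left, *his-3* RNAi in the middle and EV right. The stacks reach 944.3 to 956.6, 578.6 to 643.6 and 536.3 to 543, and the bottom segment, *hsp-17*, takes 47.9 to 49.8%, 29.3 to 32.3% and 21.6 to 22.1% of them.

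Ratios of reads within a library do not depend on how libraries are scaled. The ratio of *hsp-17* to *sip-1* reads was 2.82, 2.87 and 3.05 under *cco-1* RNAi, 1.39, 1.24 and 1.45 under *his-3* RNAi, and 1.23, 1.22 and 1.33 in EV. The *cco-1* RNAi libraries were apart from the rest, by a log2 difference of 1.21 from EV and 1.10 from *his-3* RNAi, while *his-3* RNAi and EV overlapped with a difference of 0.11. The ratio of *sip-1* to *hsp-12.2* reads was 1.08, 1.15 and 1.06 under *cco-1* RNAi, 1.12, 1.14 and 1.06 under *his-3* RNAi, and 0.597, 0.643 and 0.578 in EV. Here both treatments lay above EV, by log2 differences of 0.85 and 0.87, and overlapped with each other (−0.02). Of 18 such comparisons between the 4 most abundant genes, the separated ones gave p = 0.1 in the exact two-sided permutation test (Benjamini-Hochberg adjusted p = 0.12), the smallest p this design allows, and the *hsp-17* to *sip-1* ratio gave p = 0.2 for *his-3* RNAi against EV (exact permutation test, adjusted p = 0.225).

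Regulators and partners of the sHSPs were read from lists of pathway genes. The called counts on these lists stand beside the shares over all tested genes. Those shares were 34.9% higher and 35.9% lower under *cco-1* RNAi, and 26.9% and 27.9% under *his-3* RNAi. Of HSF-1 and its binding partners, the transcript of *hsf-1*, the heat-shock transcription factor, had log2 fold changes of 0.08 under *cco-1* RNAi (edgeR adjusted p = 0.187) and 0.07 under *his-3* RNAi (edgeR adjusted p = 0.294). *hsb-1*, which encodes a negative regulator that binds HSF-1, was lower with both, at −0.23 (edgeR adjusted p = 0.000184) and −0.22 (edgeR adjusted p = 0.000544). *ddl-1* and *ddl-2*, whose products join HSF-1 in an inhibitory complex, were higher under *cco-1* RNAi, by 0.23 (edgeR adjusted p = 0.0354) and 0.49 (edgeR adjusted p = 0.000194). Under *his-3* RNAi the same pair had values of 0.02 (edgeR adjusted p = 0.896) and −0.07 (edgeR adjusted p = 0.577). The list thus counted 2 of 4 genes higher and 1 lower under *cco-1* RNAi, and 1 lower and 3 not called under *his-3* RNAi.

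Of 11 genes for cytosolic HSP70, HSP90 and their co-chaperones, 4 were higher and 1 lower under *cco-1* RNAi (median log2 fold change 0.04), and 3 were higher and 8 lower under *his-3* RNAi (median −0.21). The heat-inducible HSP70 gene *hsp-70* was higher with both treatments, by 1.77 (edgeR adjusted p = 4.22e-09) and 1.72 (edgeR adjusted p = 1.32e-08). The inducible HSP70 genes *F44E5.4* and *F44E5.5* were higher by 1.77 and 1.13 under *cco-1* RNAi and by 3.01 and 2.25 under *his-3* RNAi (edgeR adjusted p at most 0.00124). They are near-identical copies, so that reads common to both were not counted and the values of each are uncertain. The constitutive HSP70 gene *hsp-1* had −0.09 under *cco-1* RNAi (edgeR adjusted p = 0.138) and was lower under *his-3* RNAi at −0.33 (edgeR adjusted p = 7.5e-05). *hsp-90* was higher under *cco-1* RNAi by 0.23 and lower under *his-3* RNAi at −0.26 (edgeR adjusted p = 0.000741 and 0.000385).

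Of 9 genes of the insulin pathway and targets of DAF-16, 6 were higher and 3 lower under *cco-1* RNAi, and 4 were higher and 3 lower under *his-3* RNAi (medians of 0.36 and 0.23 on the log2 scale). The insulin receptor gene *daf-2* was higher with both, by 1.14 and 0.67 (edgeR adjusted p = 1.17e-09 and 2.16e-06). *daf-16* was higher under *cco-1* RNAi by 0.36 (edgeR adjusted p = 6.29e-06) and had −0.02 under *his-3* RNAi (edgeR adjusted p = 0.756). The superoxide dismutase gene *sod-3*, a classical DAF-16 target, was higher under *cco-1* RNAi by 1.49 (edgeR adjusted p = 1.25e-08) and lower under *his-3* RNAi at −0.41 (edgeR adjusted p = 0.0318). The metallothionein gene *mtl-1* was higher with both, by 3.24 and 1.90 (edgeR adjusted p = 5.24e-07 and 0.00142). The ferritin gene *ftn-1* was lower with both, at −0.21 and −1.75 (edgeR adjusted p = 0.023 and 4.51e-11). DAF-16 targets on this list thus included genes that moved in opposite directions within 1 treatment.

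Genes with the pattern most like that of each sHSP gene were found by Pearson's r of log2 CPM over the 9 libraries among 11829 or 11830 genes with a symbol and a mean normalized count of at least 100, a description in which the group differences carry most of the correlation. For *hsp-17* these were *F55H12.4* (r = 0.999), the cytochrome P450 gene *cyp-33C8* (r = 0.998) and *C35A5.6* (r = 0.998), with log2 fold changes of 2.9, 6.23 and 1.74 under *cco-1* RNAi and 1.01, 1.89 and 0.65 under *his-3* RNAi. For *sip-1* they were *cest-26* (r = 0.995), *panl-2* (r = 0.990) and *C33D9.6* (r = 0.990). The genes closest to *hsp-12.2* were *elo-1*, a fatty acid elongase gene (r = 0.986), *rpl-26*, a ribosomal protein gene (r = 0.975), and *mlc-1*, a myosin light chain gene and one of the muscle markers (r = 0.975). The closest to *hsp-25* was *fubl-3* (r = 0.989), to *hsp-43* *spl-3* (r = 0.971), to *hsp-12.1* *tag-72* (r = 0.969) and to *hsp-12.3* *pola-1* (r = 0.911). Among the sHSP genes themselves, *hsp-17* and *sip-1* had r = 0.883, and *hsp-12.1* had r = −0.880 with *sip-1* over the 9 libraries.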

How the data were processed

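Polyadenylated RNA of 9 libraries of whole L4 worms, 3 each for *cco-1* RNAi, *his-3* RNAi and EV, was sequenced by the authors on a single lane, so that lane and group are not confounded. The authors aligned the reads with STAR (2.5.3a) to WBcel235 and counted them per gene with HTSeq, and the deposited values are whole-number counts, neither normalized nor filtered. The 5 summary rows, 7.47 to 8.34% of the reads of a library, were left out, and among them reads aligned to several places made up 6.30 to 7.27%. The labels number the replicates and do not say whether these were separate cultures, so the p-values measure the spread between these libraries.

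Genes with over 5 reads in over 3 libraries were tested in edgeR 4.0.16 (R 4.3.3) with TMM scaling, a mean for each of the 3 groups in 1 fit of all 9 libraries, the quasi-likelihood F test and a prior count of 0.125. The biological coefficient of variation was 4.92%. Standard errors were taken from F as the absolute log2 fold change over its root. The study names limma, and limma-voom (limma 3.58.1) and DESeq2 (1.42.0) were run as alternatives, beside other scalings, filters, call rules and prior counts, fits of a single pair of groups, a block for the replicate number and the removal of each library. RPKM values, computed here, use the union of annotated exons and TMM-scaled libraries. Few reads limit *hsp-12.3* and *hsp-12.6*. The parts of counting error and of the spread between replicates were not separated for any gene.

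Of the genes tested 15978 have a symbol. The text names all 8 sHSP genes, genes of the pathway and marker lists, and for each tested sHSP gene up to 3 genes with the highest Pearson r. The genes and the lists were chosen with earlier results of these data known. Symbols such as *cco-1* were read under the names of the annotation. Sequences were not used here.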

Additional observations from a re-analysis of the deposited data

How the results depend on the processing

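The calls of *hsp-17* and *sip-1* as higher than EV were kept under all alternatives that use an adjusted p alone. Under the study's rule of an absolute log2 fold change of 2 or more, 0 of the 7 genes were called in any comparison with TMM scaling, while *hsp-17* under *cco-1* RNAi would pass it with the upper quartile (2.064), library size (2.07) or *act-1* and *pmp-3* (2.141). In a fit of only the groups compared, 2 genes were lower under *cco-1* RNAi, *hsp-12.1* and *hsp-12.2*. With scaling by *act-1* and *pmp-3*, 4 genes were higher and 0 lower under *his-3* RNAi, and 2 were higher in *cco-1* against *his-3* RNAi. With library size alone, 0 were lower under *his-3* RNAi and 2 were higher in *cco-1* against *his-3* RNAi. Without the filter on low counts 1 gene, *hsp-12.6*, was lower in *cco-1* against *his-3* RNAi. For *cco-1* RNAi against EV, *hsp-12.2* changed sign to 0.003 (upper quartile), 0.009 (library size) and 0.08 (*act-1* and *pmp-3*), and *hsp-43* to 0.053, 0.059 and 0.131, and without a library it ran from −0.08 to 0.002 (without *cco-1* RNAi replicate 3). For *his-3* RNAi against EV, *hsp-25* changed sign to 0.114 (library size) and 0.184 (*act-1* and *pmp-3*), and *hsp-43* to 0.029 and 0.101. For *cco-1* against *his-3* RNAi, *hsp-12.1* ran from −0.162 to 0.046 (without *his-3* RNAi replicate 1) and *hsp-12.3* from −0.488 to 0.096 (without *his-3* RNAi replicate 3) with a library left out. Scaling shifts all genes together, which accounts for the sign changes under it, and the cause of the others was not tested. The share of called genes that were higher was 49.3% under *cco-1* RNAi and 49.1% under *his-3* RNAi, and with *act-1* and *pmp-3* it was 62.3% and 83.8%, with the upper quartile 60.7% for *his-3* RNAi, with library size 77.2% for *his-3* RNAi. For *cco-1* against *his-3* RNAi it was 46.4%, and 35.1% with library size and 34.7% with *act-1* and *pmp-3*.

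Leaving out 1 library at a time, 2 to 3 genes were higher and 1 lower under *cco-1* RNAi, 2 to 3 higher and 3 to 4 lower under *his-3* RNAi, and 4 to 5 higher and 0 lower in *cco-1* against *his-3* RNAi. The replicate numbers did not pair the libraries (correlations of same-numbered libraries at most 0.0534). With the replicate block 3 genes were higher and 1 lower under *cco-1* RNAi, 2 higher and 3 lower under *his-3* RNAi, and 5 higher and 0 lower in *cco-1* against *his-3* RNAi, so that it changed no count, and *hsp-17* had log2 fold changes of 1.975, 0.67 and 1.305 in the paired fits. Of the values of single genes under the alternatives, 389 kept direction and call, 16 lost the call, 5 gained it and 13 changed sign, of which 2 also lost and 1 also gained the call. Depth limits *hsp-12.3* and *hsp-12.6*, whose counts were at most 25 and 15 reads in a library.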

Other observations

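Several of the genes next to the sHSP genes changed differently from them. *C14F11.4*, 102 bases from *hsp-43* on the same strand, gave 40 to 67 reads under *cco-1* RNAi, 3443 to 4085 under *his-3* RNAi and 4350 to 5056 in EV, a log2 fold change of −6.32 under *cco-1* RNAi (edgeR adjusted p = 2.01e-17), while *hsp-43* had −0.04. *gcy-7*, which encodes a receptor guanylate cyclase and lies 1426 bases from *hsp-17*, gave 2 to 6 reads under *cco-1* RNAi, 165 to 176 under *his-3* RNAi and 1 to 3 in EV. Its log2 fold change under *his-3* RNAi was 5.98 (edgeR adjusted p = 5.27e-12), against few reads in EV, while *hsp-17* was higher by more under *cco-1* RNAi than under *his-3* RNAi. *F52E1.5*, 1130 bases from *hsp-17* on its other side, gave 17 to 24 reads under *cco-1* RNAi, 103 to 123 under *his-3* RNAi and 111 to 134 in EV (log2 fold change −2.49 under *cco-1* RNAi, edgeR adjusted p = 5.14e-10). *F29C6.1*, 738 bases from *hsp-12.1*, was higher with both treatments, by 1.73 and 0.48 (edgeR adjusted p = 7.13e-14 and 5.42e-06), where *hsp-12.1* was lower. *urm-1* and *sly-1*, within 206 and 256 bases of *sip-1*, were lower with both treatments, where *sip-1* was higher, with log2 fold changes of −0.52 and −0.29 under *cco-1* RNAi and −0.58 and −0.34 under *his-3* RNAi (edgeR adjusted p at most 4.85e-05). The neighbours were found as the nearest protein-coding gene on each side, and those described were chosen after their values were seen.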
